A study of Mus musculus with 10 samples.

Results

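The J chain gene and 7 genes whose products serve folding, quality control or export of secreted proteins were followed in splenic plasma cells sorted by isotype. The members were chosen by symbol, namely Jchain, Mzb1, Erp44, Lman1, Mcfd2, Fkbp11, Fkbp2 and Ppib, and each symbol matched 1 row among the 47719 gene identifiers in every library. RNA-seq had been made from 10 libraries, 5 of IgM and 5 of IgG1 plasma cells. Both groups came from transferred donor B cells carrying S1PR2-CreERT2, Ai14 and B1-8germ, placed in wild-type hosts. NP-CGG with alum was given on day 0, and tamoxifen followed on days 5 and 6. Donor cells of the spleen that were tdTomato+ were sorted on day 10 as IgM or as IgG1 plasma cells. S1PR2-CreERT2 is a Cre recombinase induced by tamoxifen in cells that use the S1pr2 gene, mainly germinal centre B cells, and Ai14 turns on the red protein tdTomato in cells where Cre has acted. B1-8germ is a rearranged heavy chain in germline form that binds the hapten NP together with lambda light chains, so the cells of both groups began with 1 heavy chain variable region. Only cells marked at the time of tamoxifen were sampled, and no source used here gives the number, age or sex of the hosts behind a library. Whether the 5 libraries of an isotype are from different animals is not said in any label. The p-values therefore rest on variation among these 10 samples, which could be technical.

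Plasma cells secrete antibody at a high rate, and IgM leaves the cell as a polymer. The J chain is a small protein that is linked by disulfide bonds into polymeric IgM and IgA and lets the polymer be carried across epithelia, while IgG is secreted as a monomer without it. Assembly of polymers is checked in the early secretory pathway, where thiol-dependent retention holds back unpolymerised subunits, and cargo receptors and prolyl isomerases serve folding and export more broadly. The comparison asks how the transcripts of this machinery differ between plasma cells marked through S1PR2-CreERT2 that make IgM and those that make IgG1.

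Values are FPKM, fragment counts scaled for transcript length and library size, so that levels of different genes can be set side by side, and means are given ± SD over the 5 libraries of a group (n = 5). Depth estimated from the smallest steps of low values ran from 26700000 to 31000000 fragments in IgM libraries and from 26200000 to 37900000 fragments in IgG1 libraries. Genes listed above 0 numbered 15487 ± 312 in IgM libraries, against 13564 ± 266 in IgG1 libraries. The sort was visible in the heavy chains, with Ighm at 85377 ± 3309.5 FPKM in IgM libraries, against 1170.3 ± 85.5 FPKM in IgG1 libraries, although Ighg1 stood at 14974 ± 4280.2 FPKM in IgM libraries, against 93807 ± 8149 FPKM in IgG1 libraries. Summed FPKM of 8 mature B cell markers ran from 118 to 145 in IgM and from 78.6 to 95.7 in IgG1 libraries. Of these 8 markers, 4 were tested and all 4 were higher in IgM libraries, and their part in the results was not tested. In bulk samples such as these, fewer cells of a type and less RNA per cell cannot be told apart. Of 8 plasma cell markers, all were tested, and 6 were higher and 1, Xbp1, was lower in IgM libraries. Among all tested genes 20.2% were higher and 18.1% lower by the same test, described below. Germinal centre markers summed to between 22.9 and 28.4 FPKM in IgM and between 10.9 and 17.7 FPKM in IgG1 libraries, and of 3 tested only Gcsam passed, at 14.6 FPKM in IgM cells, against 4.21 FPKM in IgG1 cells, while S1pr2 was at 8.57 FPKM in IgM cells, against 8.50 FPKM in IgG1 cells. Markers of other lineages were low, with 7 T cell markers summing to at most 6.52 FPKM in an IgM library and 3.81 FPKM in an IgG1 library. Myeloid markers reached 36.7 FPKM in IgM libraries, against 19.4 FPKM in IgG1 libraries, mostly from Cd68 at 31.2 FPKM in IgM cells, against 12.9 FPKM in IgG1 cells, while S100a8 and S100a9 were listed at 0 in all 10 libraries. Of 3 myeloid markers tested, Cd68 was higher in IgM libraries and Lyz2 and Itgam did not pass, Lyz2 being at 1.09 FPKM in IgM cells, against 1.62 FPKM in IgG1 cells, and Itgam at 0.599 FPKM in IgM cells, against 1.47 FPKM in IgG1 cells, so that the median log2 difference was −0.37. Erythroid markers reached 5.60 FPKM in IgM libraries, against 4.23 FPKM in IgG1 libraries, stromal and endothelial markers 6.96 FPKM in an IgM library and 7.77 FPKM in an IgG1 library, and NK cell markers 0.398 FPKM in an IgM library and 0 in every IgG1 library.

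Of the 8 members, 5 were higher in IgM cells, namely Jchain, Mzb1, Erp44, Lman1 and Fkbp11, and Mcfd2, Fkbp2 and Ppib did not pass the test, which was limma on log2 of FPKM plus 1 over 9900 genes with a Benjamini-Hochberg adjusted p under 0.05. The directions of these 5 held under every scaling tried except quantile normalization, where Mzb1 turned negative and Jchain was at 0 within rounding. Among all tested genes 38.3% passed the same test, 20.2% as higher in IgM cells and 18.1% as lower. No member was lower in IgM cells by limma, and 0 were lower at an unadjusted p under 0.05. Over all genes, 2001 passed as higher and 1791 as lower in IgM cells, and quantile normalization changed that split to 1510 and 2182 while shifting the median log2 difference by −0.11, to −0.06 instead of 0.05. The median log2 difference of the 8 members was 0.16, and 7 of the 8 differences were above 0. In 3 members, Jchain, Erp44 and Fkbp11, the 5 IgM values lay above all 5 IgG1 values, against a background of 13.3% of all tested genes, with 13.1% apart in the other direction and 26.3% in either.

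**Figure D1:**
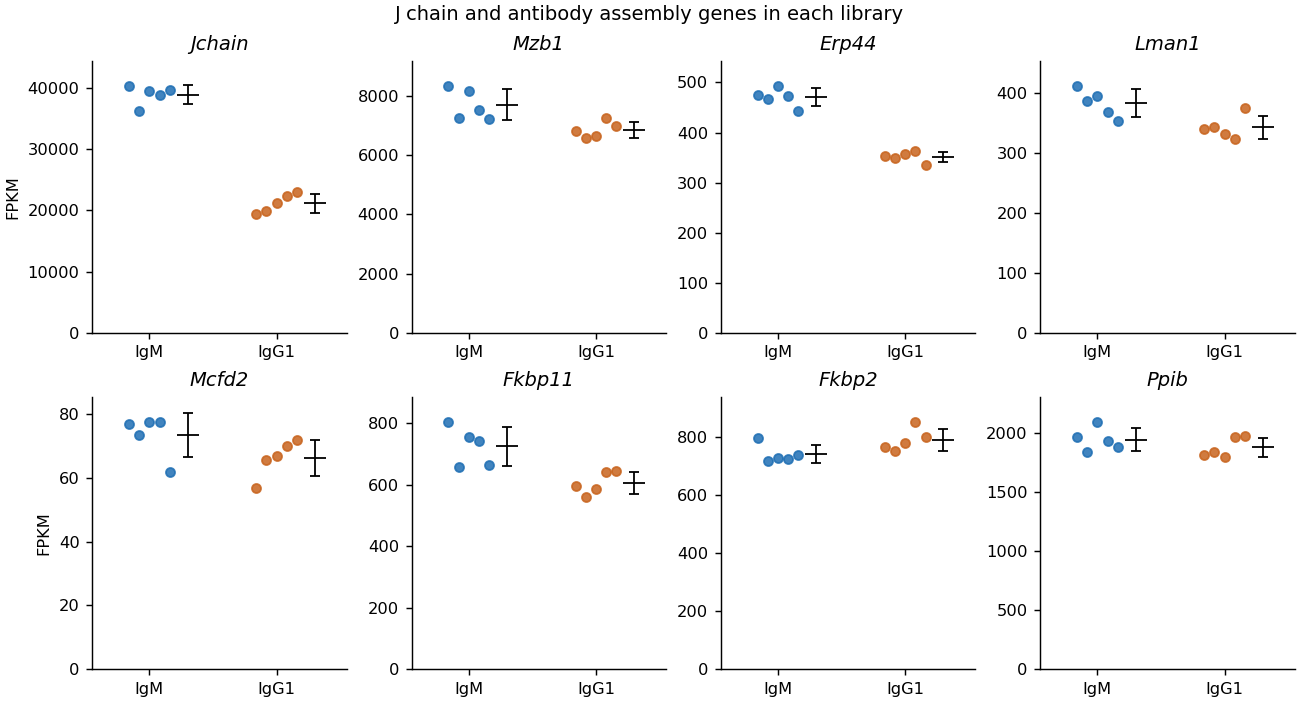
FPKM of each of the 8 genes (vertical axes, linear from 0) in the 5 IgM and the 5 IgG1 libraries; points are libraries and the bar beside them is the mean ± SD. The groups are fully apart for Jchain, Erp44 and Fkbp11 and overlap for the other genes.

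Jchain showed the widest separation of the 8. Its FPKM was 40282, 36165, 39417, 38702 and 39611 in the IgM libraries, against 19438, 19879, 21094, 22263 and 23043 in the IgG1 libraries. The lowest IgM library stood far above the highest IgG1 library, yet J chain transcripts remained among the most abundant of IgG1 cells, ranking 7 or 8 among tested genes in every library of both groups. The mean was 38835 ± 1595 FPKM in IgM cells, against 21143 ± 1531 FPKM in IgG1 cells, a ratio of 1.84 (log2 difference 0.88, SE 0.04, limma adjusted p = 4.55e-09). This difference was larger than or equal to that of 91.8% of tested genes. Jchain lies on chromosome 5 (88519809 to 88527891, minus strand, GRCm38) and is protein coding. It made up 7.76% ± 0.239 of all FPKM outside immunoglobulin genes in IgM libraries, against 4.15% ± 0.221 in IgG1 libraries.

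The stretches of 250 bases before the transcription start are shown as examples for Jchain, the member that differed most, for Erp44, the next, and for Ppib, which did not pass. Capitals mark matches, on either strand, to CCACG and to the box CCAAT, the parts of the endoplasmic reticulum stress element used by ATF6 and XBP1. The sequences are from RefSeq on GRCm38.p6, at chr5:88527898-88528147 (minus strand), chr4:48279590-48279839 (minus strand) and chr9:66059919-66060168 (plus strand).
Jchain: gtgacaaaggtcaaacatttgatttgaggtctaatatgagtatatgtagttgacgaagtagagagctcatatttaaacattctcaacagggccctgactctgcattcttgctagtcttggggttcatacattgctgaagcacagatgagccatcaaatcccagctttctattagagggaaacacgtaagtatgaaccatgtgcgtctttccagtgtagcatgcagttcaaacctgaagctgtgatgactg
Erp44: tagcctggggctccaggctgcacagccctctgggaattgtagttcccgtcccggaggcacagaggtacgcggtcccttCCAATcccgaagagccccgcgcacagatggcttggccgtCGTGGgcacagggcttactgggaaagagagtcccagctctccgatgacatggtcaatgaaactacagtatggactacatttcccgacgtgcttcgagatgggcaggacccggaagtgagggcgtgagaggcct
Ppib: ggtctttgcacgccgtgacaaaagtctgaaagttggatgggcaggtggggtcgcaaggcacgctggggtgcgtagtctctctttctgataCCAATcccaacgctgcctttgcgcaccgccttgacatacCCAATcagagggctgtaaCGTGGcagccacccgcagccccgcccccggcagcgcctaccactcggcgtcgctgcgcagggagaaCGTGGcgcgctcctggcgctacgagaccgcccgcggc
The Jchain stretch held no match to CCACG, to the CCAAT box, to the XBP1 element core TGACGTG or to the composite motif of ETS factors and IRF4. Erp44 held 1 CCAAT box and 1 match to CGTGG, the reverse complement of CCACG, while Ppib held 2 of each. Over all 32851 entries of the table, 28.3% held CCACG, 33.8% held the CCAAT box, 1.65% held the core TGACGTG and 2.30% held the ETS-IRF motif on either strand within the same 250 bases. The complete stress element with both parts at their set spacing, a motif chosen after these matches were seen, was in 0.113% of entries and in no window of Jchain, Erp44, Mcfd2, Fkbp11, Fkbp2 or Ppib. A match or its absence describes these letters in this window only. The downstream end of the Jchain entry was found in a GENCODE M21 transcript of that gene, while those of Erp44 and Ppib were not. Erp44 also had another listed start site, not shown, whose stretch held the same 2 matches. Among members not shown, Fkbp11, which passed, held both parts at start site 2 and neither at start site 1. Of those that did not pass, Mcfd2 held CCACG matches without a CCAAT box, and Fkbp2 held both parts at start site 2 and neither at start site 3. The matches thus did not divide the members by whether they passed.

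Set against the antibody chains of the same library, J chain transcripts were also higher in IgM cells. The ratio of Jchain to summed heavy chain constant region FPKM was 0.340, 0.342, 0.384, 0.348 and 0.337 in the IgM libraries, against 0.203, 0.224, 0.232, 0.236 and 0.210 in the IgG1 libraries. No value of one group reached the other. The mean was 0.350 ± 0.0192 in IgM libraries, against 0.221 ± 0.0139 in IgG1 libraries, a log2 difference of 0.66 (exact permutation test, two-sided, p = 0.00794 and adjusted p = 0.00952 over 6 ratios, higher in 5 of 5 IgM libraries). With 5 libraries against 5 that p is the smallest possible. Under quantile normalization the log2 difference was 0.16 (exact permutation p = 0.310), which did not pass. With length and GC trends removed it was 0.39 (exact permutation p = 0.00794). Over light chain constant FPKM the ratio was 0.0868 ± 0.00464 in IgM libraries, against 0.0585 ± 0.00146 in IgG1 libraries. Over Ighm and Igha alone, the chains that can take up a J chain, it was 0.450 ± 0.0181 in IgM libraries, against 16.3 ± 2.05 in IgG1 libraries, where both chains together came to 86433 ± 2974 FPKM in IgM libraries, against 1304 ± 99.8 FPKM in IgG1 libraries. Reads of related constant region genes can be shared among them, so the single chain values are uncertain. Of 8 heavy chain constant genes, all tested, 6 were higher and 1, Ighg1, was lower in IgM cells, with Ighg2b and Ighg2c also higher. Among all tested genes 20.2% were higher and 18.1% lower. Of 5 light chain constant genes, 4 were higher in IgM cells, namely Igkc, Iglc1, Iglc2 and Iglc4, although Iglc2 passed in 11 of 22 alternatives. Iglc4 was near the floor, at 3.48 FPKM in IgM cells, against 0.433 FPKM in IgG1 cells, with 4 IgG1 libraries at 0. Its call ended without a filter and without IgG1 replicates 4 and 5. That of Iglc1 ended with eBayes without trend or robust settings and under quantile normalization. Igkc, the kappa chain, was at 53697 ± 12967 FPKM in IgM cells, against 17330.0 ± 2422 FPKM in IgG1 cells.

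**Figure D2:**
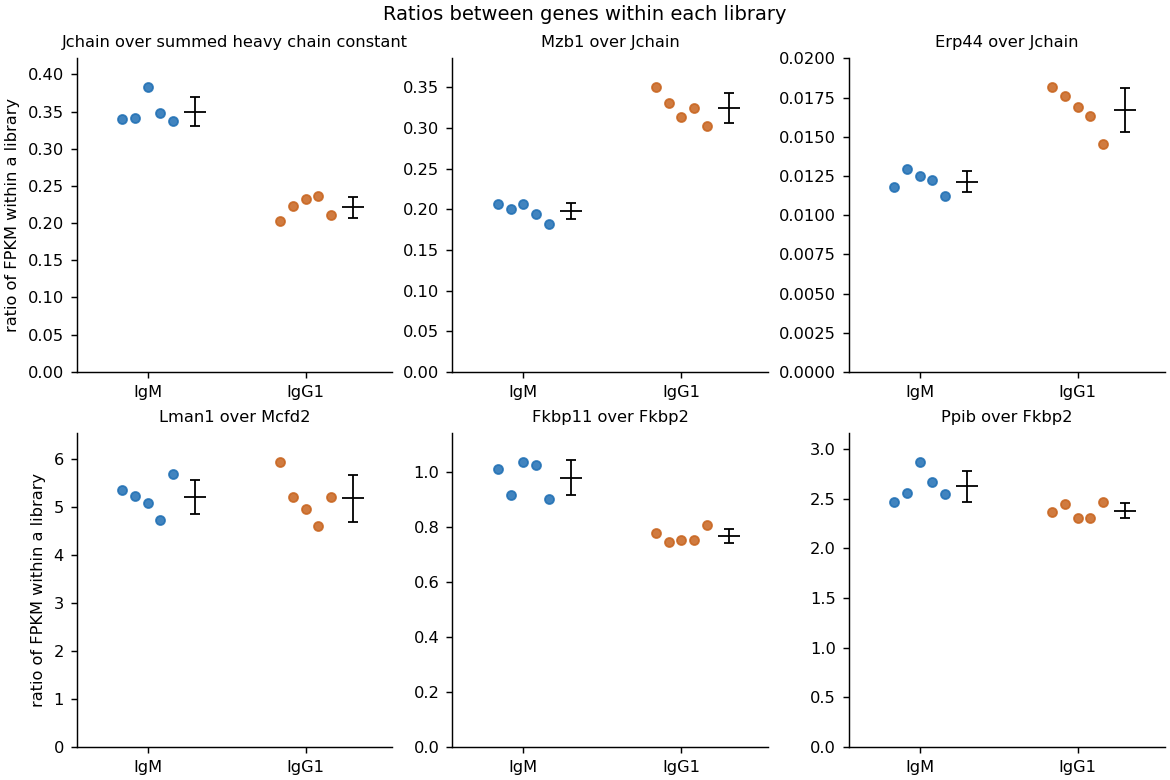
Ratios of FPKM within each library (vertical axes, linear from 0) for the 6 pairs compared, in the 5 IgM and the 5 IgG1 libraries; points are libraries and the bar beside them is the mean ± SD. The groups do not overlap in 5 pairs of these deposited values, of which Ppib over Fkbp2 and Erp44 over Jchain reversed under quantile normalization and Ppib over Fkbp2 also with length and GC trends removed, while Lman1 over Mcfd2 averaged 5.22 in IgM and 5.19 in IgG1 libraries.

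Mzb1 encodes an endoplasmic reticulum protein of B lineage cells that works with the chaperone GRP94 in the folding and secretion of heavy chains. Its FPKM was 8328, 7238, 8151, 7501 and 7224 in IgM libraries, against 6819, 6575, 6624, 7229.6 and 6957 in IgG1 libraries. The groups overlapped by a narrow margin, with IgM replicate 5 just below IgG1 replicate 4. The mean of 7688 ± 519 FPKM in IgM cells was 1.12 times that of 6841 ± 266 FPKM in IgG1 cells (log2 difference 0.17, SE 0.04, limma adjusted p = 0.00387). The gene no longer passed when eBayes was run with neither trend nor robust settings (adjusted p = 0.105), and quantile normalization gave −0.25. Mzb1 was the second most abundant member in all 10 libraries, ranking 14 to 16 among tested genes. Its level per J chain was lower in IgM cells, with a ratio of Mzb1 to Jchain of 0.198 ± 0.0102 in IgM libraries, against 0.324 ± 0.0184 in IgG1 libraries (log2 difference −0.71, exact permutation p = 0.00794, adjusted p = 0.00952), although it did not pass under quantile normalization (−0.25, exact permutation p = 0.111). With length and GC trends removed the log2 difference of this ratio was −0.40 (exact permutation p = 0.00794). Jchain differed more than Mzb1, so the ratio gives no support separate from the tests of these genes. Mzb1 (chromosome 18, 35647267 to 35649367, minus strand) shares 695 of its 1215 exonic bases with a second gene model of the same strand, SPATA24. That model is not among the deposited identifiers, so no value shows whether fragments were divided between them.

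Erp44 encodes a protein of the thioredoxin family that binds exposed cysteines in the early secretory pathway and returns unassembled IgM subunits and other clients to the endoplasmic reticulum. Its FPKM was 475, 467, 493, 474 and 444 in IgM libraries, against 354, 349, 357, 363 and 335 in IgG1 libraries. All IgM values lay above all IgG1 values. The mean was 471 ± 17.9 FPKM in IgM cells, against 352 ± 10.4 FPKM in IgG1 cells, a ratio of 1.34 (log2 difference 0.42, SE 0.04, limma adjusted p = 7.68e-07). The call held in all 22 alternatives, with log2 differences of 0.32 to 0.44. Erp44 differed less than Jchain, so that the ratio of Erp44 to Jchain was 0.0121 ± 0.000664 in IgM libraries, against 0.0167 ± 0.00140 in IgG1 libraries (log2 difference −0.46, exact permutation p = 0.00794, adjusted p = 0.00952). Under quantile normalization, which levels Jchain, this ratio reversed (0.43, exact permutation p = 0.0397). Like that of Mzb1 to Jchain, this ratio gives no support separate from the tests of the single genes. Erp44 lies on chromosome 4 (48193323 to 48279558, minus strand).

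Lman1 and Mcfd2 encode the subunits of a receptor that carries selected glycoproteins from the endoplasmic reticulum towards the Golgi, LMAN1 being the lectin that spans the membrane and MCFD2 its calcium-binding partner. Lman1 (chromosome 18, 65980738 to 66022580, minus strand) was at 412, 386, 395, 368 and 352 FPKM in IgM libraries, against 339, 342, 332, 323 and 375 FPKM in IgG1 libraries. IgG1 replicate 5 lay within the IgM range, and the other 4 IgG1 libraries lay below every IgM library. The mean was 382 ± 23.1 FPKM in IgM cells, against 342 ± 19.7 FPKM in IgG1 cells (log2 difference 0.16, SE 0.05, limma adjusted p = 0.0255). Lman1 no longer passed when IgM replicate 1, 2 or 3 or IgG1 replicate 3 or 4 was left out (adjusted p = 0.0512 to 0.0730), without a filter on low values (adjusted p = 0.0994), with eBayes without trend or robust settings (adjusted p = 0.127) and once length and GC trends of the transcripts were removed (log2 difference 0.0084, adjusted p = 0.921). Mcfd2 (chromosome 17, 87254443 to 87265935, minus strand) was at 76.9, 73.7, 77.6, 77.7 and 61.8 FPKM in IgM libraries, against 57.0, 65.6, 67.0, 70.1 and 71.9 FPKM in IgG1 libraries. The low IgM replicate 5 lay within the IgG1 range, and the other 4 IgM libraries lay above all IgG1 libraries. The mean was 73.5 ± 6.77 FPKM in IgM cells, against 66.3 ± 5.79 FPKM in IgG1 cells (log2 difference 0.15, SE 0.08, limma adjusted p = 0.185), and the test was passed once length and GC trends were removed (0.23, adjusted p = 0.0374). Transcripts of the lectin exceeded those of its partner in all 10 libraries, and the groups overlapped, with a ratio of Lman1 to Mcfd2 of 5.22 ± 0.354 in IgM libraries, against 5.19 ± 0.494 in IgG1 libraries (log2 difference 0.012, exact permutation p = 0.865, adjusted p = 0.865). Once length and GC trends were removed the ratio was lower in IgM libraries (−0.23, exact permutation p = 0.0238).

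Fkbp11, Fkbp2 and Ppib encode prolyl isomerases of the endoplasmic reticulum, enzymes that speed the turning of peptide bonds before proline during folding, and of the 3 genes Fkbp11 passed the test. FKBP11 is abundant in secretory cells, FKBP2 is a small FK506-binding protein, and PPIB is cyclophilin B, which also acts in complexes with other chaperones. Fkbp11 (chromosome 15, 98724366 to 98728198, minus strand) was at 805, 658, 755, 742 and 665 FPKM in IgM libraries, against 596, 561, 587, 641 and 645 FPKM in IgG1 libraries. Every IgM library lay above every IgG1 library, IgM replicate 2 by a small margin. The mean was 725 ± 62.5 FPKM in IgM cells, against 606 ± 36.6 FPKM in IgG1 cells, a ratio of 1.20 (log2 difference 0.26, SE 0.06, limma adjusted p = 0.00187). Its call held in all 22 alternatives, with log2 differences of 0.18 to 0.45.

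Fkbp2 (chromosome 19, 6977741 to 6980501, minus strand) was at 795, 717, 727, 722 and 737 FPKM in IgM libraries, against 765, 749.9, 778, 850.4 and 798 FPKM in IgG1 libraries. IgM replicate 1 lay within the IgG1 range, and the other 4 IgM libraries lay below all IgG1 libraries. The mean was 739.6 ± 31.6 FPKM in IgM cells, against 788 ± 39.0 FPKM in IgG1 cells (log2 difference −0.09, SE 0.04, limma adjusted p = 0.113). Its test was passed without IgM replicate 1 (−0.12, adjusted p = 0.0485), under median-ratio scaling (−0.12, adjusted p = 0.0405) and under quantile normalization (−0.26, adjusted p = 6.73e-05), and it was passed in the other direction once length and GC trends were removed (0.21, adjusted p = 0.00797). Ppib (chromosome 9, 66060222 to 66066623, plus strand) was at 1963, 1833, 2091, 1930.3 and 1881 FPKM in IgM libraries, against 1812, 1836, 1797, 1962 and 1967 FPKM in IgG1 libraries. The groups overlapped over most of their range, with means of 1939.6 ± 97.8 FPKM in IgM cells, against 1875 ± 83.1 FPKM in IgG1 cells (log2 difference 0.05, SE 0.04, limma adjusted p = 0.372). Under quantile normalization Ppib passed as lower in IgM cells (−0.41, limma adjusted p = 5.83e-06). Of the exonic bases of Ppib, 825 of 3305 are shared with Snx22 on the other strand, which was at no more than 2.49 FPKM in any library.

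Within a library, Fkbp11 was higher relative to Fkbp2 in IgM cells. The ratio of Fkbp11 to Fkbp2 was 1.01, 0.917, 1.04, 1.03 and 0.903 in IgM libraries, against 0.779, 0.748, 0.755, 0.754 and 0.809 in IgG1 libraries. The 5 IgM values all lay above the IgG1 values, with means of 0.980 ± 0.0643 in IgM libraries, against 0.769 ± 0.0253 in IgG1 libraries (log2 difference 0.35, exact permutation p = 0.00794, adjusted p = 0.00952). This direction held under quantile normalization (0.44, exact permutation p = 0.00794) and with length and GC trends removed (0.23, exact permutation p = 0.0159). Ppib stood at 2.63 ± 0.157 times Fkbp2 in IgM libraries and at 2.38 ± 0.0748 times Fkbp2 in IgG1 libraries, without overlap in the deposited values (log2 difference 0.14, exact permutation p = 0.00794, adjusted p = 0.00952). That direction reversed under quantile normalization (−0.15, exact permutation p = 0.0238) and with length and GC trends removed (−0.10, exact permutation p = 0.167). The smallest IgM value of this ratio, 2.470, lay next to the largest IgG1 value, 2.465.

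**Figure D3:**
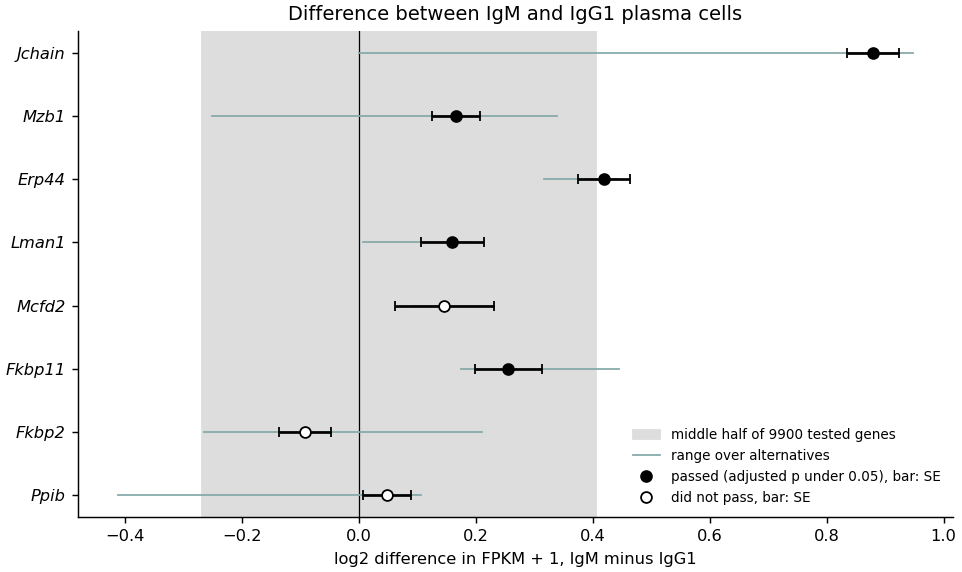
Log2 difference in FPKM plus 1, IgM minus IgG1 (horizontal axis), for each of the 8 genes, with its SE; filled points passed at an adjusted p under 0.05, thin lines span the alternatives and the grey band runs between the quartiles of all tested genes. Jchain at 0.88 and Erp44 at 0.42 lie above the band, which ends at 0.41, the thin lines of Jchain, Mzb1 and Ppib reach or cross 0 under quantile normalization, and that of Fkbp2 crosses it, and that of Lman1 nears it, once length and GC trends were removed.

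By level, the order in both groups began with Jchain, Mzb1 and Ppib and ended with Erp44, Lman1 and Mcfd2. Fkbp11 and Fkbp2 stood between them with ranges that overlapped in IgM libraries, 658 to 805 FPKM for Fkbp11 and 717 to 795 FPKM for Fkbp2. In IgG1 libraries the ranges were apart, with Fkbp2 at 749.9 to 850.4 FPKM above Fkbp11 at 561 to 645 FPKM. Erp44 lay above Lman1 in every IgM library (444 to 493 against 352 to 412 FPKM), while in IgG1 libraries the ranges of Erp44, 335 to 363 FPKM, and Lman1, 323 to 375 FPKM, overlapped. Without Jchain, the other 7 genes together came to 12019 ± 713 FPKM in IgM libraries, against 10869.6 ± 412 FPKM in IgG1 libraries, and Jchain alone was 76.4% ± 0.832 of the sum of all 8 in IgM and 66.0% ± 1.14 in IgG1 libraries. The coefficient of variation between libraries of a group was lowest for Erp44, at 3.81% in IgM and 2.95% in IgG1 libraries, and highest for Mcfd2, at 9.21% in IgM and 8.74% in IgG1 libraries.

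The profiles of the members over the 10 libraries were compared by the root mean square distance between log2 values centred on their mean, as a description without a test. Among the 8, Mzb1 and Fkbp11 lay closest (0.062), and Jchain and Fkbp2 lay farthest apart (0.488). Out of 6661 candidate genes outside the immunoglobulins, the nearest to Jchain were St8sia6, a sialyltransferase (distance 0.072), Stx5a, a SNARE of transport between the endoplasmic reticulum and the Golgi (0.078), and Slc3a2, the heavy chain of the CD98 amino acid transporter (0.082). Stx5a, for example, was at 206 ± 13.2 FPKM in IgM cells, against 114 ± 3.63 FPKM in IgG1 cells (log2 difference 0.85, limma adjusted p = 5.95e-09). Nearest to Erp44 were Apobec3, a cytidine deaminase (0.052), Tram1, a partner of the translocon (0.059), and Srp72, a signal recognition particle subunit (0.060). Mzb1 lay nearest to the peroxiredoxin gene Prdx4 (0.038), Ift20 (0.041) and Yipf5 (0.047), Lman1 nearest to the coatomer subunit Copb1 (0.042), the cargo adaptor Tmed2 (0.059) and Serinc3 (0.061), and Fkbp11 nearest to Ifnar2 (0.059), Mzb1 and Enpp1 (0.064).

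Other genes of IgM assembly and thiol quality control went both ways, more of them higher. Of 14 such genes, all tested, 7 were higher and 3 lower in IgM cells, and 4 did not pass. Over all tested genes 20.2% passed as higher and 18.1% as lower. The median log2 difference was 0.13 beside 0.05 over all tested genes. With eBayes run with neither trend nor robust settings 6 of the 14 passed, and under quantile normalization more were lower than higher. Txndc5, a disulfide isomerase, was at 2029 ± 95.6 FPKM in IgM cells, against 618 ± 33.4 FPKM in IgG1 cells (log2 difference 1.71, limma adjusted p = 9.16e-15), a wider difference than that of any member. The oxidase gene Ero1lb, which re-oxidises disulfide isomerases, was at 72.3 ± 3.36 FPKM in IgM cells, against 44.3 ± 4.17 FPKM in IgG1 cells (log2 difference 0.70, adjusted p = 2.12e-06). Its relative Ero1l went the other way, at 21.8 ± 2.88 FPKM in IgM cells, against 28.8 ± 1.77 FPKM in IgG1 cells (log2 difference −0.39, adjusted p = 0.00793), a call that ended without IgG1 replicates 4 and 5 together (adjusted p = 0.0540). Pdia4, another disulfide isomerase, and Hspa5, the chaperone BiP, were higher in IgM cells (log2 differences 0.35 and 0.26, adjusted p = 2.28e-07 and 2.74e-05), except under quantile normalization, where they were at −0.028 and −0.068. Hsp90b1, the GRP94 chaperone with which the Mzb1 product works, was at 7641 ± 534 FPKM in IgM cells, against 6685 ± 238 FPKM in IgG1 cells (log2 difference 0.19, adjusted p = 0.00133), a call that ended with eBayes without trend or robust settings and with length and GC trends removed and turned to −0.070 under quantile normalization.

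Genes of other cargo receptors between the endoplasmic reticulum and the Golgi went both ways. Of 20, 19 were tested, with 6 higher and 6 lower in IgM cells, 7 not passing, and a median log2 difference of −0.03. Among all tested genes the shares were 20.2% higher and 18.1% lower. With eBayes run with neither trend nor robust settings 7 of the 19 passed. The number higher fell to 3 without IgM replicate 1, without IgM replicate 3, without a filter, and with eBayes run with neither trend nor robust settings. Ergic2, a membrane protein that cycles in the early secretory pathway, was at 256 ± 17.9 FPKM in IgM cells, against 187 ± 17.9 FPKM in IgG1 cells (log2 difference 0.45, limma adjusted p = 4.42e-05). Kdelr1, a receptor that returns chaperones with a retrieval tail and the ERp44 protein to the endoplasmic reticulum, was at 82.7 ± 5.47 FPKM in IgM cells, against 111 ± 10.8 FPKM in IgG1 cells (log2 difference −0.42, adjusted p = 2.66e-04), whereas its relative Kdelr3 was at 21.6 ± 1.32 FPKM in IgM cells, against 15.9 ± 2.23 FPKM in IgG1 cells (log2 difference 0.43, adjusted p = 0.00805). Tmed5 was higher in IgM cells (54.3 FPKM in IgM cells, against 39.5 FPKM in IgG1 cells, adjusted p = 1.50e-04) and Ergic1 lower (317 FPKM in IgM cells, against 379 FPKM in IgG1 cells, adjusted p = 5.30e-04), and both calls ended once length and GC trends were removed (adjusted p = 0.0625 and 0.0581). Lman1l, a relative of Lman1, was listed at 0 in all 10 libraries.

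Prolyl isomerases outside the endoplasmic reticulum included differences wider than those of Fkbp11, Fkbp2 and Ppib. Of 27, 24 were tested, with 5 higher and 8 lower in IgM cells, 11 not passing, and a median log2 difference of −0.18. The number higher was near the share among all tested genes, where 20.2% were higher and 18.1% lower. Ppia, cyclophilin A of the cytosol, was at 895 ± 41.6 FPKM in IgM cells, against 1566 ± 89.9 FPKM in IgG1 cells (log2 difference −0.81, limma adjusted p = 4.49e-10), although reads of its processed pseudogenes may be shared with it. Fkbp4, a partner of HSP90, was at 52.8 ± 2.49 FPKM in IgM cells, against 90.7 ± 6.32 FPKM in IgG1 cells (log2 difference −0.77, adjusted p = 2.02e-07), and Fkbp1a, the FK506 target FKBP12, at 56.9 ± 6.57 FPKM in IgM cells, against 89.4 ± 5.15 FPKM in IgG1 cells (log2 difference −0.65, adjusted p = 7.61e-06). Nktr, a cyclophilin with a splicing factor like tail, was higher in IgM cells, at 34.6 ± 6.10 FPKM in IgM cells, against 14.1 ± 3.31 FPKM in IgG1 cells (log2 difference 1.25, adjusted p = 6.29e-06). Of 5 further isomerases of the endoplasmic reticulum, 2 were tested and Fkbp14 alone passed, at 1.91 FPKM in IgM cells, against 0.552 FPKM in IgG1 cells (log2 difference 0.90, adjusted p = 0.0136), which did not pass under quantile normalization (adjusted p = 0.0729) or when IgG1 replicates 4 and 5 were both left out (adjusted p = 0.0801). Fkbp10 and Ppic were listed at 0 in all 10 libraries, and these 5 genes together summed to at most 8.94 FPKM in an IgM library and 4.78 FPKM in an IgG1 library. Of 14 genes for collagen hydroxylation and its chaperones, with which PPIB also works, 6 were tested, and limma called 0, with 0 at an unadjusted p under 0.05 and 0 by eBayes without trend or robust settings. The most abundant of them, Plod3, was at 11.8 FPKM in IgM cells, against 10.5 FPKM in IgG1 cells.

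**Figure D4:**
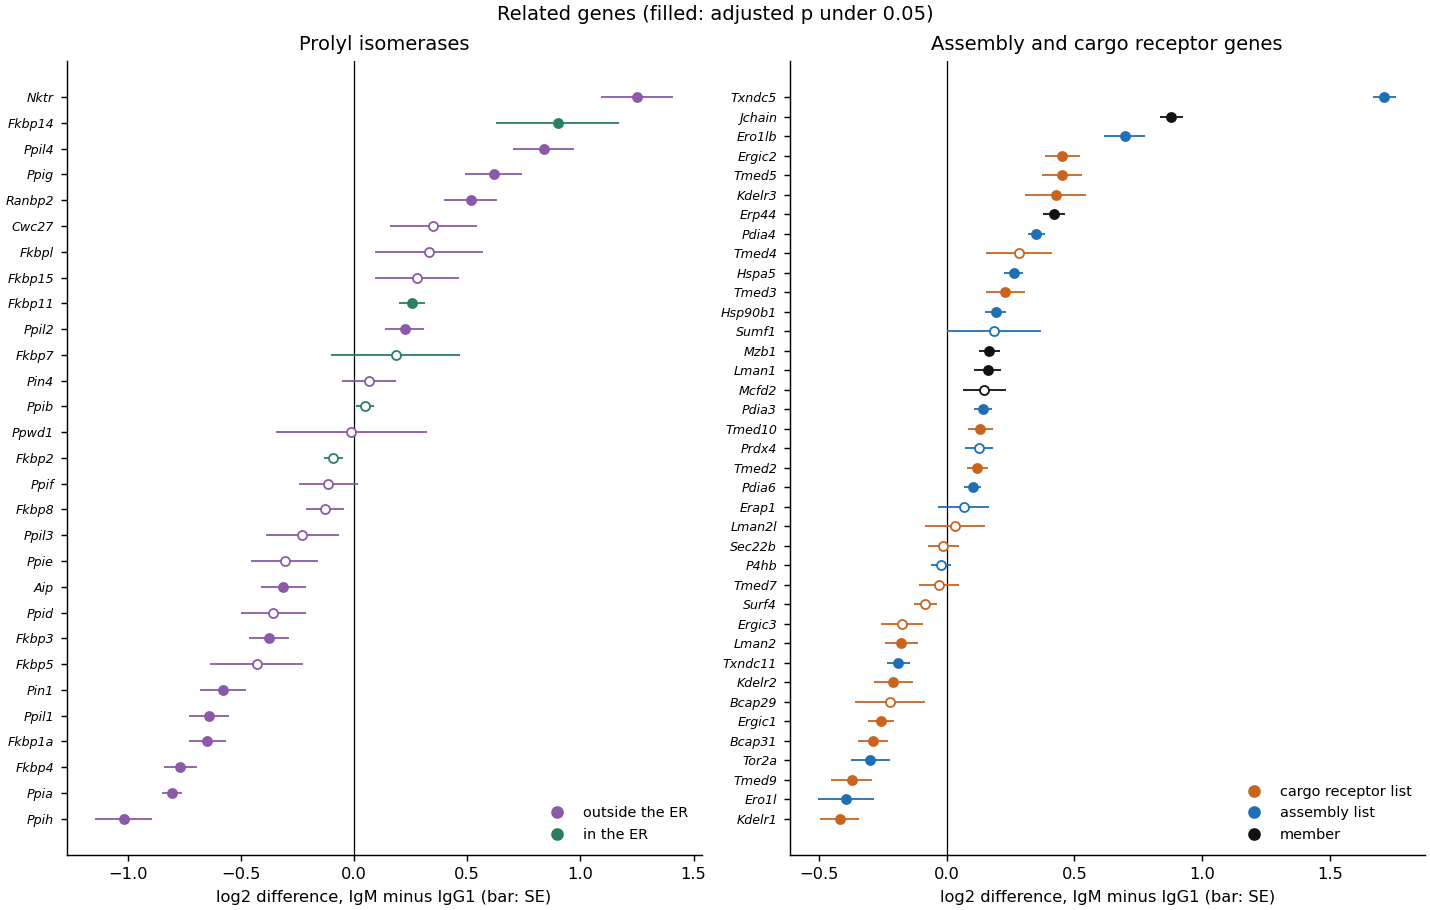
Log2 difference, IgM minus IgG1 (horizontal axes), with its SE, for tested prolyl isomerases (left) and for assembly and cargo receptor genes with 5 of the 8 members (right); filled points passed at an adjusted p under 0.05. Isomerases outside the endoplasmic reticulum spread from −1.02 for Ppih to 1.25 for Nktr, while Fkbp11, Fkbp2 and Ppib lie between −0.09 and 0.26, and Txndc5 at 1.71 lies beyond Jchain.

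Regulators reported to act on the J chain gene did not share a direction. Of 9, 8 were tested, with 3 higher and 2 lower in IgM cells, 3 not passing, and a median log2 difference of −0.05. Among all tested genes 20.2% were higher and 18.1% lower. Mef2c, a MADS-box factor of B cells, was at 164 ± 10.7 FPKM in IgM cells, against 82.1 ± 9.10 FPKM in IgG1 cells (log2 difference 0.99, limma adjusted p = 2.32e-08), and Prdm1, which encodes Blimp-1, at 53.5 ± 2.71 FPKM in IgM cells, against 29.2 ± 2.70 FPKM in IgG1 cells (log2 difference 0.86, adjusted p = 6.37e-07). Spi1, which encodes PU.1, was lower in IgM cells (log2 difference −0.57, adjusted p = 0.00180, and 0.0882 once length and GC trends were removed). Xbp1, the driver of the secretory programme, was lower in IgM cells by a small margin (log2 difference −0.13, adjusted p = 0.0104), did not pass when eBayes was run with neither trend nor robust settings, and was at 0.052 once length and GC trends were removed. Pax5, a repressor of Jchain in B cells, averaged 0.0704 FPKM in IgM cells, against 0.0600 FPKM in IgG1 cells. Among 5 receptors and partners of secreted IgM and IgA, 2 were tested, and the IgM receptor gene Fcmr was at 38.4 ± 10.6 FPKM in IgM cells, against 8.62 ± 1.35 FPKM in IgG1 cells (log2 difference 2.00, adjusted p = 7.53e-08). Pigr, the epithelial receptor that carries polymers with a J chain, was at most 0.00566 FPKM on average in IgM and 0.00171 FPKM in IgG1 cells.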

How the data were processed

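RNA of sorted splenic mouse plasma cells was profiled in 10 libraries, 5 of IgM and 5 of IgG1 cells, assigned to groups by sample title. Total RNA was isolated by miRNeasy Micro, per the labels' protocols, and converted to libraries by a SMART-Seq kit of Takara (mRNA HT LP), which is not known to keep strand. HISAT2 2.1.0, Cufflinks 2.2.1, Cuffdiff and the build GRCm38 are named in the submitters' processing notes, and their settings and the annotation release were not found in the sources used here. Each library has 1 deposited table of FPKM, per the file headers. FPKM is a share of a library, so abundant transcripts lower the rest, and no scaling across libraries is stated.

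GENCODE M21 (GRCm38) gave symbols and coordinates for 47305 of 47719 identifiers. Of all identifiers, 9900 with a mean of at least 1 FPKM were tested with limma 3.58.1 (R 4.3.3) after 1 was added to each FPKM value as pseudocount and log2 taken (trend and robust, group only, two-sided, Benjamini-Hochberg threshold 0.05), as IgM minus IgG1. The 6 ratios were tested by exact permutation in scipy 1.17.1. Tables and plots used pandas 2.3.3, numpy 2.4.6 and matplotlib 3.10.9 in Python 3.11.15. Depth came from the lowest values of genes with 1 transcript, assuming fragments of 200 bases, and gives no counting interval. Members, lists and tests were chosen with earlier results of these data known. Named genes were the members, up to 4 called genes of a list by smallest p (or the most abundant), and the 3 nearest profiles of each called member. Hsp90b1, Pdia3, Ero1l, Kdelr3, Lman1l, Fkbp10, Ppic, Ppih, Pax5, Pigr and the marker genes were named outside that rule after their values were seen. Igha was also named outside it, as part of a ratio. Alternatives were other pseudocounts (0.1 and 5), filters (none, and a mean of 5 FPKM), scalings, models, a replicate block and left-out libraries. Ratios under quantile normalization and with length and GC trends removed were added after the data were seen, and 1 factor per library cancels in a ratio. Same-numbered libraries were not paired by the labels.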

Additional observations from a re-analysis of the deposited data

Results flagged for a closer look

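Of 28 sets of 5 libraries examined for a value far from the rest (8 genes and 6 ratios in both groups), 3 held one, and chance alone gives about 1 in 20 such sets. Mcfd2 in IgM replicate 5 was at 61.8 FPKM, below the other 4 IgM libraries, which ran from 73.7 to 77.7 FPKM. Without it the log2 difference of Mcfd2 was 0.21 (limma adjusted p = 0.0567) in place of 0.15. Fkbp2 in IgM replicate 1 was at 795 FPKM, above the other IgM libraries, and without it the gene passed the test. The ratio of Jchain to heavy chain constant FPKM in IgM replicate 3 was 0.384, above the others, and without it the log2 difference was 0.63 (exact permutation p = 0.0159).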

How the results depend on the processing

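Over 22 alternatives, the calls of Erp44 and Fkbp11 held in all 22, that of Jchain in 21, that of Mzb1 in 20 and that of Lman1 in 14, while Mcfd2 and Ppib passed in 1 each and Fkbp2 in 4. Quantile normalization, which fixes the value at each rank and so removes differences of genes whose ranks are alike in every library (7 or 8 for Jchain), gave Jchain 7.79e-16, Mzb1 −0.25, Ppib −0.41 and Fkbp2 −0.26, with 3 members higher and 2 lower in IgM cells. It also gave Pdia4 −0.028, Hspa5 −0.068, Hsp90b1 −0.070, Pdia3 −0.16, Tmed2 −0.022 and Serinc3 −0.0060. Removing length and GC trends gave Lman1 0.0084, Mcfd2 0.23, Fkbp2 0.21, Xbp1 0.052 and Yipf5 −0.011, and the cause was not tested. With eBayes without trend or robust settings the values stayed at 0.17 for Mzb1 and 0.16 for Lman1, neither passed, and 3 members were higher. Without a filter Lman1, at 0.16, did not pass. Median-ratio scaling gave Fkbp2 −0.12 and 1 member lower. Leaving out single libraries gave 0.13 to 0.19 for Lman1, −0.12 to −0.063 for Fkbp2, −0.030 to 0.062 for the log2 ratio of Lman1 to Mcfd2, and 0 or 1 members lower. Without IgG1 replicates 4 and 5 that ratio came to −0.040. Ratios recomputed after the data were seen gave, under quantile normalization, 0.16 for Jchain over heavy chains, −0.25 for Mzb1 over Jchain, 0.43 for Erp44 over Jchain, −0.044 for Lman1 over Mcfd2 and −0.15 for Ppib over Fkbp2, and, with length and GC trends removed, −0.23 for Lman1 over Mcfd2 and −0.10 for Ppib over Fkbp2. Removing those trends also gave 0.39 for Jchain over heavy chains and −0.40 for Mzb1 over Jchain. List counts that moved by over 1.5 times were, for assembly genes, 7 higher against 4 with eBayes without trend or robust settings and 2 under quantile normalization, which also gave 5 lower against 3. Cargo receptors had 6 higher against 3 under the 4 settings named with it, isomerases outside the endoplasmic reticulum 5 higher against 3 with length and GC trends removed, J chain regulators 2 lower against 0 there and 1 with eBayes without those settings, and light chains 4 higher against 2 under quantile normalization, without a filter or without IgG1 replicates 4 and 5. Of the other endoplasmic reticulum isomerases, 1 higher became 0 under quantile normalization, with a mean of 5 FPKM required, and without IgG1 replicates 4 and 5. Jchain over Ighm and Igha alone reversed to −5.17, since IgG1 cells have little of either chain. Same-numbered libraries correlated at −0.036 to 0.097 in their deviations from the group means, so the numbers were not taken as pairs. Among IgG1 libraries, that of the same number correlated highest for IgM replicates 1, 3 and 4, but not for replicates 2 and 5. A replicate block changed no member's call, and gave 1952 genes higher and 1749 lower in IgM cells. For the ratios the block left the log2 differences at 0.66 (Jchain over heavy chains), −0.71 (Mzb1 over Jchain), −0.46 (Erp44 over Jchain), 0.35 (Fkbp11 over Fkbp2) and 0.14 (Ppib over Fkbp2), each with an exact p of 0.0625, the smallest 5 pairs allow. FPKM values carry no counts, so no counting error is attached to them.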
